A study of Mus musculus with 15 samples.

Results

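Neurexins, neuroligins and LRRTMs are the cell adhesion molecules of one trans-synaptic system, and 9 genes of it were followed here in mouse prefrontal cortex (PFC): the neurexins Nrxn2 and Nrxn3, the neuroligins Nlgn1, Nlgn2 and Nlgn3, and the leucine-rich repeat transmembrane proteins Lrrtm1, Lrrtm2, Lrrtm3 and Lrrtm4. The genes were chosen by symbol, with earlier results of these data known, and all 9 were among the 26145 genes listed in the deposited matrices. Neurexins sit mainly in the presynaptic membrane and bind partners across the cleft. Neuroligins and LRRTMs are postsynaptic partners of neurexins. Nlgn1 is known mainly from excitatory synapses, Nlgn2 from inhibitory synapses and Nlgn3 from both, and the LRRTMs are known mainly from excitatory synapses.

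The PFC of male C57BL/6N mice was dissociated and single cells were captured in droplets, reverse transcribed with unique molecular identifiers (UMIs) and sequenced. At P60 (8 to 10 weeks in the labels) 12 libraries came from mice that had been food trained, fitted with a jugular catheter and allowed to press a lever for intravenous cocaine or saline. They form 6 groups of 2 libraries, with cocaine or saline at each of 3 periods: maintenance, 48 h of withdrawal and 15 d of withdrawal. Each of these libraries pooled the tissue of 2 mice. The paper places the catheter implant at P60, so tissue was taken later, after self-administration and up to 15 d of withdrawal. P60 is used here as the name of this adult group, and the saline P60 libraries pool the 3 periods. At P21 (3 weeks) 3 libraries were made from 4 mice that had no catheter and no drug, so age and the self-administration procedure cannot be told apart in the comparison of P21 with saline P60.

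The authors' table assigned 35360 retained cells (24822 at P60 and 10538 at P21) to 8 classes: excitatory and inhibitory neurons, astrocytes, oligodendrocyte precursors (OPC), newly formed oligodendrocytes, oligodendrocytes, microglia and endothelial cells. A library held 8375172 to 42892922 UMIs in retained cells. The share of excitatory neurons ranged from 25.1% in the first saline maintenance library to 73.8%. Inhibitory neurons numbered 19 to 363 and OPC 3 to 178 in a library. All 22 class markers examined were highest in the class they name. The authors joined clusters into classes by known markers, some of them in this list, so that outcome was partly fixed in advance. The sample titles and source names give the PFC, whereas the tissue field of all 15 samples gives NAc, an abbreviation used for the nucleus accumbens of the striatum. The striatal neuron markers Drd2, Adora2a and Ppp1r1b reached at most 7.43, 6.88 and 19.3 CPM (UMI counts scaled to a common total) in the inhibitory neurons of any library. The class and the finer cluster of a cell disagreed for 33 cells at P60 and for 459 cells at P21, and the age comparisons within a class or cluster that gave a call were repeated with matching cells only, those whose class and cluster agreed. No pair of libraries shared more than 27 cell barcodes, which was 0.816% of the smaller library.

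Counts were summed over the cells of a class in a library and are given as CPM of that sum, without the genes of the mitochondrial genome and of ribosomal proteins. A UMI library reads the 3′ end of a transcript, so alpha and beta neurexins and splice forms were not separated. In sums over cells, fewer cells of a subtype and less RNA per cell cannot be told apart.

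In the NCBIM37 build Nrxn2 occupies chr19:6418731-6544169 on the plus strand and Nrxn3 occupies chr12:89961320-91573375 on the plus strand. Nlgn1 lies at chr3:25330733-26032656 on the minus strand, Nlgn2 at chr11:69636624-69651286 on the minus strand and Nlgn3 at X:98491178-98521302 on the plus strand. Lrrtm1 lies at chr6:77192683-77207785 on the plus strand, inside an intron of Ctnna2 on the opposite strand. Lrrtm2 and Lrrtm3, the latter at chr10:63391220-63553025 on the minus strand, lie in the same way inside introns of Ctnna1 and Ctnna3, respectively, which encode alpha-catenins. Lrrtm4 lies at chr6:79968871-80760137 on the plus strand. Nlgn3 overlaps Med12 on the same strand over 1627 bases at its start, 28498 bases from its 3′ end, and Med12 held 141 UMIs over all cells against 21507 for Nlgn3.

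RefSeq promoter windows (250 bases before the start to 50 after it, GRCm38.p6) were at hand for 6 of the 9 genes. Those of 3 genes are printed because their levels across classes contrast: Nlgn2 and Lrrtm3 were highest in OPC, whereas Lrrtm1 was at about the same level in OPC and in neurons. Capitals mark GGGCGG, the core of the Sp1 motif, on either strand.
Nlgn2: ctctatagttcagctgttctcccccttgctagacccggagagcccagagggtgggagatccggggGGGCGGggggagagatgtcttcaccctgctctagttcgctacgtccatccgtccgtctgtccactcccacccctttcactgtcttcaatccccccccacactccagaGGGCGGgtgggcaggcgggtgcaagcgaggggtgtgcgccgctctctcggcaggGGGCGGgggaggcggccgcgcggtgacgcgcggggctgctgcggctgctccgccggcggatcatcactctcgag
Lrrtm3: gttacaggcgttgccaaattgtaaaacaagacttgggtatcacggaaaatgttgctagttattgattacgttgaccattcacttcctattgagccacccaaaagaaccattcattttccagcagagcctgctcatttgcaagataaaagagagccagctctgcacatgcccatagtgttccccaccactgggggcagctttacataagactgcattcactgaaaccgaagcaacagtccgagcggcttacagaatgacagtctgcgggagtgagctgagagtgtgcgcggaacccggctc
Lrrtm1: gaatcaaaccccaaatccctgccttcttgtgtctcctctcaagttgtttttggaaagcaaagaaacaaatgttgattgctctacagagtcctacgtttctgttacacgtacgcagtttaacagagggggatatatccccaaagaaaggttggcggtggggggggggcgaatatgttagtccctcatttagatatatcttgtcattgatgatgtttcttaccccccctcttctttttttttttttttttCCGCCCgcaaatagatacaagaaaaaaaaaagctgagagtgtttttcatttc
The windows are chr11:69837735-69838034 on the minus strand for Nlgn2, chr10:64090206-64090505 on the minus strand for Lrrtm3 and chr6:77242227-77242526 on the plus strand for Lrrtm1. The Nlgn2 window had 26 CpG dinucleotides, a GC content of 68.7% and 3 copies of GGGCGG. The Lrrtm3 window had 10 CpG, a GC content of 48.7% and no copy, and the Lrrtm1 window had 7 CpG, a GC content of 40.7% and 1 copy. Of 32851 promoter windows in the table, 35.7% held GGGCGG, and the median number of CpG was 7. None of the 3 windows held TATAAA (13.6% of windows), TGACGTCA (1.79%) or CACGTG (7.15%), all searched on both strands.

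To learn which PFC cells carry the system, the level of each gene was compared across the 8 classes in the 12 P60 libraries. The classes were built by the authors from all genes of these cells, so the order of the classes is described without a test. The OPC, the dividing cells that give rise to oligodendrocytes, held the highest mean CPM for 7 of the 9 genes, above both neuron classes. The exceptions were Nrxn3, highest in inhibitory neurons, and Lrrtm1, whose level was alike in excitatory neurons, OPC and inhibitory neurons. CPM is a share of the UMIs counted in a class. The paper reports fewer UMIs per cell in non-neuronal cells than in neurons, so the order of transcripts per cell may differ and was not compared. The share of all genes that are highest in OPC, or that separate OPC from other classes, is not given here.

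**Figure D1:**
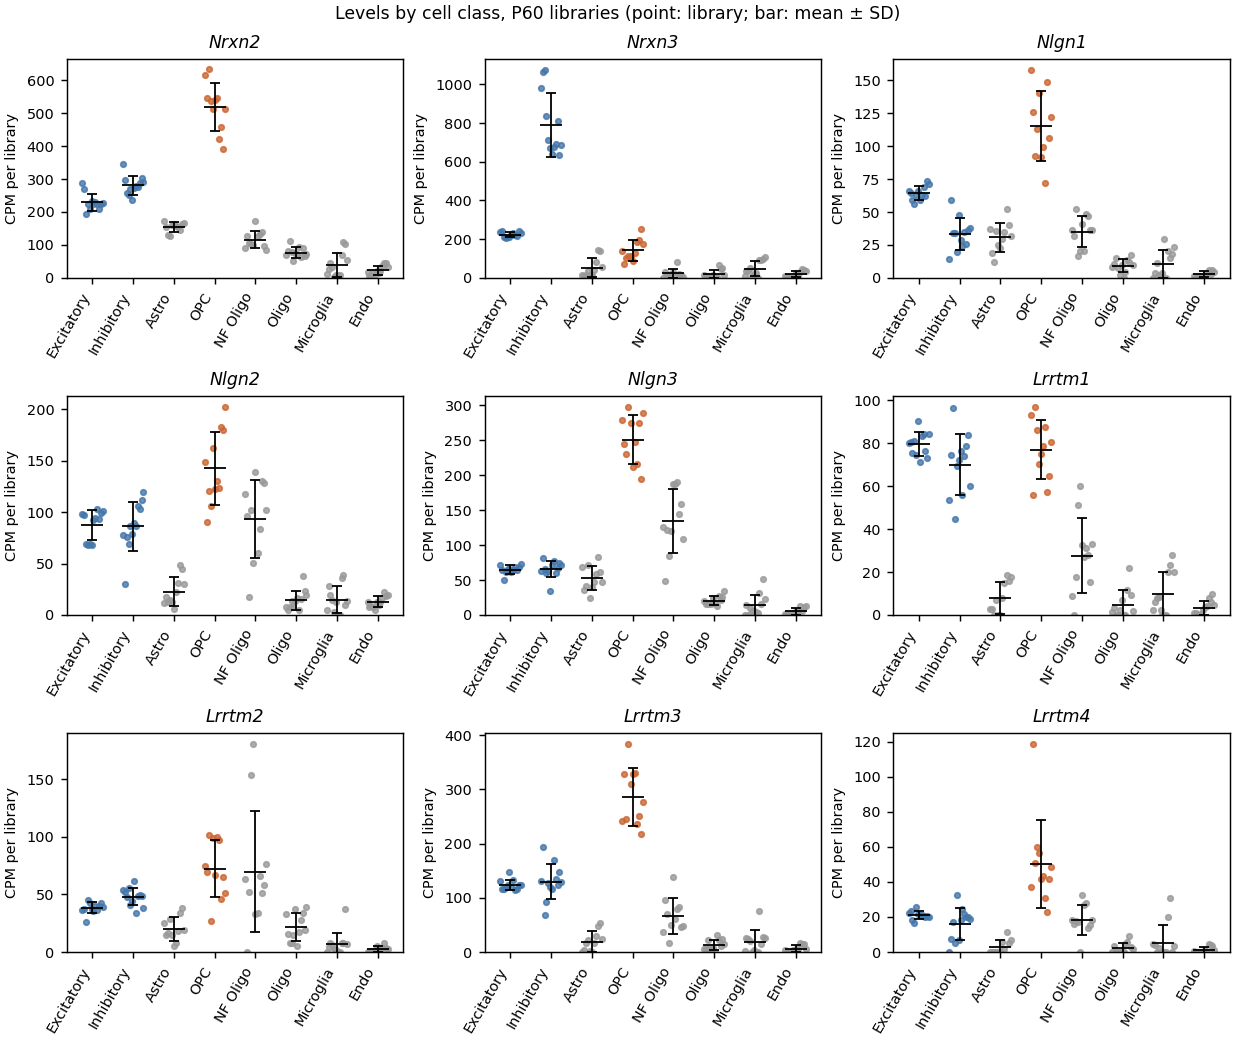
CPM of the 9 genes in the 8 cell classes of the P60 libraries. Points are libraries and bars give the mean ± SD. The OPC points stand above those of all other classes for Nrxn2, Nlgn3 and Lrrtm3, and the inhibitory points do so for Nrxn3. The share of all genes with such a pattern is not given.

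Among the neurexins, Nrxn2 in OPC ranged from 393 to 632 CPM with a median of 537 over 11 libraries. The mean was 519 ± 73.1 CPM (SD, n = 11), against 281 ± 28.3 CPM (SD, n = 12) in inhibitory and 230 ± 25.8 CPM (SD, n = 12) in excitatory neurons. All 11 OPC values lay above all inhibitory values. The 15 d libraries, with cocaine or saline, held the lowest OPC values, at 393 to 511 CPM against 513 to 632 CPM at the other periods. Nrxn3 had the opposite order. In inhibitory neurons Nrxn3 ranged from 638 to 1077 CPM with a median of 703 and a mean of 790 ± 164 CPM (SD, n = 12). In excitatory neurons it was 224 ± 13.0 CPM (SD, n = 12) and in OPC 142 ± 54.7 CPM (SD, n = 11), and the ranges of these last classes overlapped. In OPC Nrxn3 was 177 to 254 CPM in the 15 d libraries and 69.8 to 140 CPM at the other periods. The 15 d libraries were also higher for Nrxn3 in astrocytes (56.5 to 146 against 10.2 to 39.8 CPM). The same held in microglia (92.3 to 107 against 0 to 50.7 CPM) and endothelial cells (30.3 to 48.1 against 2.56 to 26.5 CPM). In oligodendrocytes and newly formed oligodendrocytes the periods overlapped. Whether levels in OPC or in these classes differ between periods was not tested. The 3 inhibitory libraries near or above 1000 CPM all came from the maintenance period, each with few inhibitory neurons in its library.

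The neuroligins were all highest in OPC. Nlgn3 in OPC ranged from 194 to 298 CPM with a median of 247. Its mean was 251 ± 34.8 CPM (SD, n = 11) in OPC and 135 ± 45.2 CPM (SD, n = 11) in newly formed oligodendrocytes, and all OPC values lay above all values of the latter. Nlgn3 was close to equal in inhibitory (65.8 CPM) and excitatory neurons (65.1 CPM), and each was above the other in 6 of 12 libraries. Nlgn1 was 115 ± 26.5 CPM (SD, n = 11) in OPC and 64.4 ± 5.19 CPM (SD, n = 12) in excitatory neurons, with OPC higher in 11 of 11 libraries although the ranges overlapped. Nlgn2 was 143 ± 35.4 CPM (SD, n = 11) in OPC and higher there than in newly formed oligodendrocytes in 9 of 11 libraries. Below OPC, Nlgn2 did not differ beyond its spread among newly formed oligodendrocytes (93.3 CPM), excitatory neurons (87.7 CPM) and inhibitory neurons (86.2 CPM).

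The LRRTMs differed from each other. Lrrtm3 in OPC ranged from 217 to 384 CPM with a median of 276. At 286 ± 52.9 CPM (SD, n = 11) it was above inhibitory neurons (130 CPM) and excitatory neurons (124 CPM) in every library. Lrrtm4 was low in all classes and highest in OPC, at 50.1 ± 25.1 CPM (SD, n = 11) against 20.96 CPM in excitatory neurons, with OPC higher in 11 of 11 libraries. Those OPC values of Lrrtm4 rest on 2 to 27 UMIs in a library, and the highest, 119 CPM, came from the first saline maintenance library. Lrrtm2 was 72.4 ± 25.02 CPM (SD, n = 11) in OPC and 69.8 ± 52.6 CPM (SD, n = 11) in newly formed oligodendrocytes, so the first place was within the spread. In the saline libraries alone, and without any one of 5 libraries (cocaine maintenance 2, cocaine 48 h 2, cocaine 15 d 1, saline maintenance 1 or saline 48 h 2), newly formed oligodendrocytes held the highest mean for Lrrtm2, and the count of genes highest in OPC was then 6. Lrrtm1 was 79.6 ± 5.53 CPM (SD, n = 12) in excitatory neurons, 76.9 CPM in OPC and 69.9 CPM in inhibitory neurons, and its order changed to inhibitory neurons first in the saline libraries alone.

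Transcripts of neurons were also counted in glia. Snap25, a presynaptic protein gene of all neurons, was at 10.4% of its excitatory level in OPC, whereas the 9 genes were at 63.1% (Nrxn3) to 377% (Nlgn3) of theirs. In astrocytes Snap25 was at 10.8%. There Nlgn3 stood at 79.1%, Nrxn2 at 66.2%, Lrrtm2 at 51.3% and Nlgn1 at 47.7%, whereas Lrrtm1 at 10.0% and Lrrtm4 at 13.0% were near the Snap25 share. In oligodendrocytes Lrrtm2 (56.5%), Nrxn2 (33.5%) and Nlgn3 (31.6%) were above the Snap25 share of 4.3%. In microglia the 9 genes lay between 12.4% and 25.9% and Snap25 at 11.5%. Endothelial cells held 4.2% to 14.7% of the excitatory levels and Snap25 at 3.8%. Each share is given over the libraries without its spread, and Snap25 is a single gene. The part of neuronal transcripts in the levels of the 9 genes in glia was not tested.

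Within neurons, excitatory and inhibitory sums of the same library could be paired. Nrxn3 was 3.53-fold and Nrxn2 1.22-fold higher in inhibitory neurons, each in 12 of 12 libraries. Of 8825 genes at 10 CPM or more in either class, 13.4% were higher in inhibitory neurons in every library. Nlgn1 was 1.94-fold higher in excitatory neurons in 12 of 12 libraries, and 15.7% of genes had that pattern. For the other 6 genes the order changed from library to library. Nlgn2, known for inhibitory synapses, was 87.7 ± 14.5 CPM (SD, n = 12) in excitatory and 86.2 ± 23.8 CPM (SD, n = 12) in inhibitory neurons, higher in the inhibitory sum in 8 of 12 libraries.

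The authors divided excitatory neurons into 26 and inhibitory neurons into 12 fine clusters, and the 9 genes spread very differently over them. Lrrtm4 varied 22.6-fold between its highest and lowest excitatory cluster and Lrrtm1 17.0-fold. Lrrtm2 varied 6.88-fold, Nrxn3 4.17-fold and Nlgn1 3.48-fold. Lrrtm3 (2.54-fold), Nlgn2 (2.13-fold), Nrxn2 (2.01-fold) and Nlgn3 (1.80-fold) were the most even. The clusters were made from all genes, so these ranges are descriptions.

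**Figure D2:**
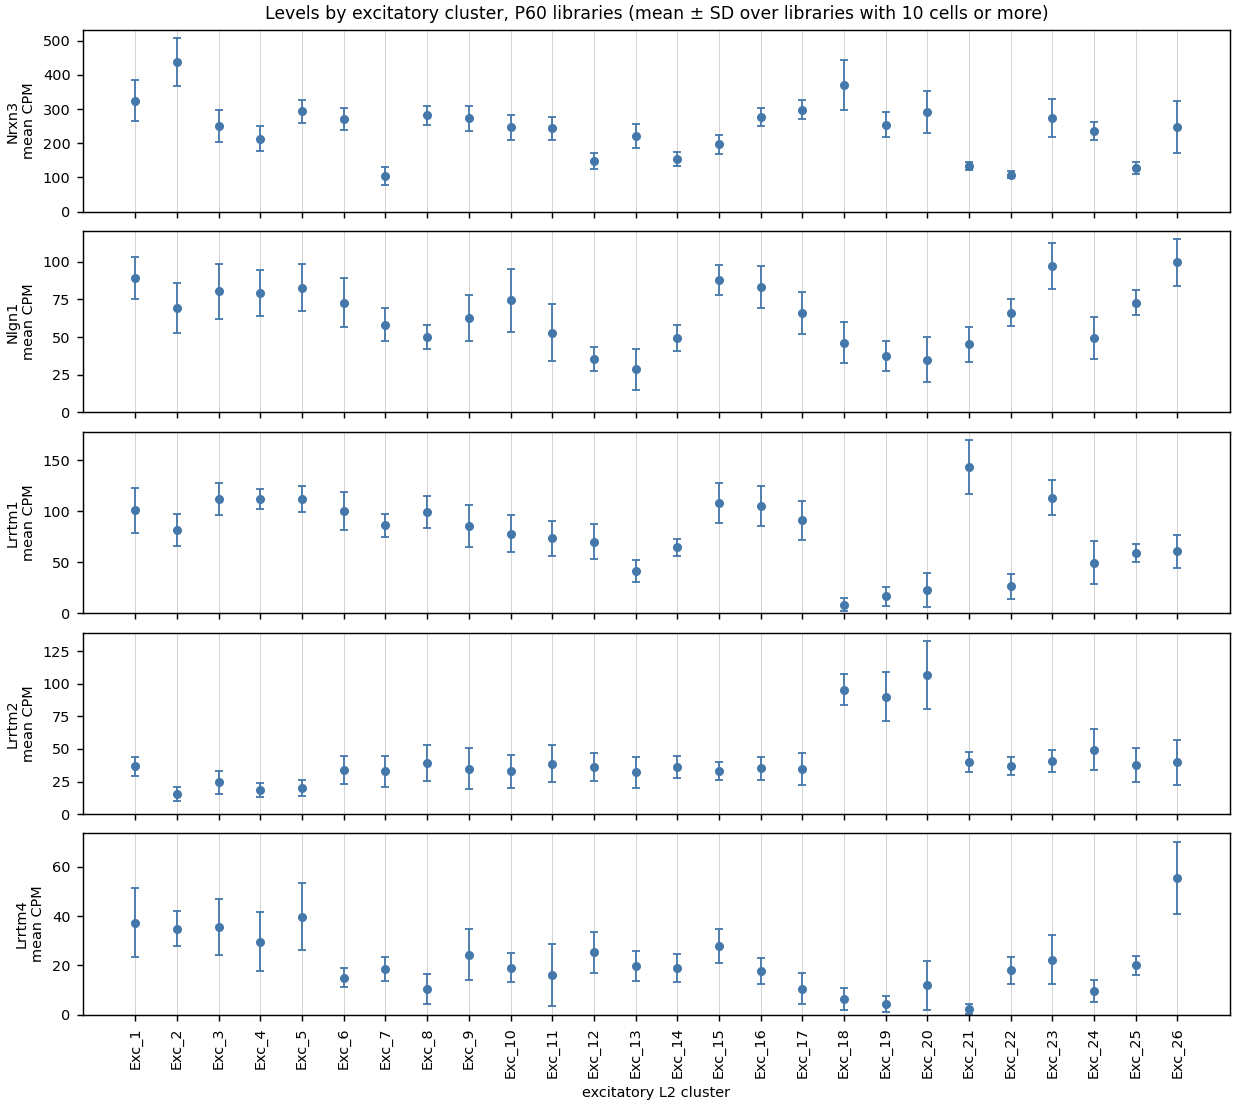
Mean CPM ± SD over P60 libraries with 10 cells or more, for Nrxn3, Nlgn1, Lrrtm1, Lrrtm2 and Lrrtm4 (one panel each) in the 26 excitatory clusters. In Exc_18, Exc_19 and Exc_20 Lrrtm1 is lowest and Lrrtm2 highest.

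Lrrtm1 and Lrrtm2 had opposite extremes. Exc_18 (led by Igfbp4, Hs3st4 and Tle4) and Exc_19 and Exc_20 (both led by Rprm, Foxp2 and Syt6) had the highest Lrrtm2, at 95.6 ± 11.9 CPM (SD, n = 7), 90.3 ± 18.8 CPM (SD, n = 12) and 107 ± 26.2 CPM (SD, n = 8). The same clusters had the lowest Lrrtm1, at 8.44 ± 6.15 CPM (SD, n = 7), 16.6 ± 9.06 CPM (SD, n = 12) and 23.1 ± 16.8 CPM (SD, n = 8). Exc_21, led by Tshz2 and by Nxph1, which encodes a secreted neurexin ligand, had the highest Lrrtm1 at 143 ± 26.5 CPM (SD, n = 12) and an intermediate Lrrtm2 of 39.9 CPM. Exc_2, led by Inhba and Wfs1, had the lowest Lrrtm2 at 15.5 ± 5.33 CPM (SD, n = 12). In the P21 libraries, whose cells the authors placed in these clusters by their likeness to P60 cells, Lrrtm2 in Exc_18, Exc_19 and Exc_20 averaged 111, 93.4 and 100.5 CPM (n = 3 each) and Lrrtm1 26.6, 30.1 and 33.6 CPM. Over the 38 neuronal clusters, which share libraries, Pearson's r of log2(CPM + 1) was -0.58 between Lrrtm1 and Lrrtm2 and -0.54 between Lrrtm2 and Lrrtm4.

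Lrrtm4 was highest in Exc_26, led by Pou3f1 and Parm1, at 55.4 ± 14.6 CPM (SD, n = 8), and lowest in Exc_21 at 2.45 ± 2.07 CPM (SD, n = 12). Exc_21 was therefore at opposite ends for Lrrtm1 and Lrrtm4. Exc_26 also had the highest Nlgn1, at 99.7 ± 15.6 CPM (SD, n = 8), although Exc_23 at 97.1 CPM did not differ beyond the spread. Exc_13, led by Npy and Oprk1, had the lowest Nlgn1 at 28.6 ± 13.5 CPM (SD, n = 12). Nrxn3 was highest in Exc_2 at 437 ± 71.3 CPM (SD, n = 12) and lowest in Exc_7 at 105 ± 25.5 CPM (SD, n = 9). For Nrxn2, Nlgn2, Nlgn3 and Lrrtm3 the highest clusters were Exc_3 (312 CPM), Exc_23 (123 CPM), Exc_3 (93.2 CPM) and Exc_18 (197 CPM), each within 1 SD of the cluster that followed.

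In inhibitory clusters, given as UMIs pooled over P60 libraries because few libraries had 10 cells of a cluster, Nrxn3 was 1772 CPM in Inhib_10 (led by Tnfaip8l3, Npy2r and Htr3a), 1717 CPM in Inhib_11 (led by Cck and Tac2) and 1631 CPM in Inhib_12 (led by Slc17a8). It was 434 CPM in Inhib_6, led by the parvalbumin gene Pvalb, and 364 CPM in Inhib_7, led by Tac1. The lowest was Inhib_8 with 298 CPM, a cluster of 48 cells led by Pf4, Hbb-b2 and Ppbp, which are genes of platelets and red cells. Lrrtm1 was highest in Inhib_2 (118 CPM) and lowest in Inhib_11 (20.4 CPM), whereas Lrrtm2 was highest in Inhib_7 (63.6 CPM) and lowest in Inhib_2 (24.98 CPM).

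The genes whose log2(CPM + 1) followed each member most closely over the 38 clusters were sought among 11202 genes. For Nrxn3 they were A530058N18Rik (r = 0.89), Npas1 (r = 0.88) and Npas3 (r = 0.87), of which the last pair encode transcription factors. For Nlgn1 they were Arhgap32 (r = 0.88), Emx1 (r = 0.86), a transcription factor of cortical excitatory neurons, and Tgm3 (r = 0.85). Nlgn2 was followed by Hdac9 (r = 0.81), Lrrc8c (r = 0.74) and Brd2 (r = 0.72), and Nlgn3 by Zrsr1 (r = 0.77), Nsun7 (r = 0.75) and Ankrd10 (r = 0.74). Nrxn2 was followed by 2510009E07Rik (r = 0.78), Plxna3 (r = 0.78), a semaphorin receptor gene, and Tro (r = 0.77). Among the LRRTMs, Lrrtm1 was followed by Mblac2 (r = 0.80), Galnt7 (r = 0.78) and Ccdc148 (r = 0.75), Lrrtm2 by A330070K13Rik (r = 0.75), Gm16496 (r = 0.72) and Krt80 (r = 0.70), Lrrtm3 by Anp32b (r = 0.77), Wdr91 (r = 0.76) and 1810063B07Rik (r = 0.76), and Lrrtm4 by Auts2 (r = 0.71), Tle3 (r = 0.70) and Slc38a10 (r = 0.68). The clusters share libraries and differ in depth, so these values are descriptions.

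P21 was compared with P60 to learn which genes change over adolescence. The 3 P21 and the 6 saline P60 libraries were tested in edgeR over all genes of a class, and calls required both an adjusted p under 0.05 (Benjamini-Hochberg) and a difference of more than 1.5-fold. Nlgn3, a neuroligin of both excitatory and inhibitory synapses, fell from P21 to P60 in both neuron classes and was the only one of the 9 genes called in either. The other 8 genes stayed below the threshold.

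**Figure D3:**
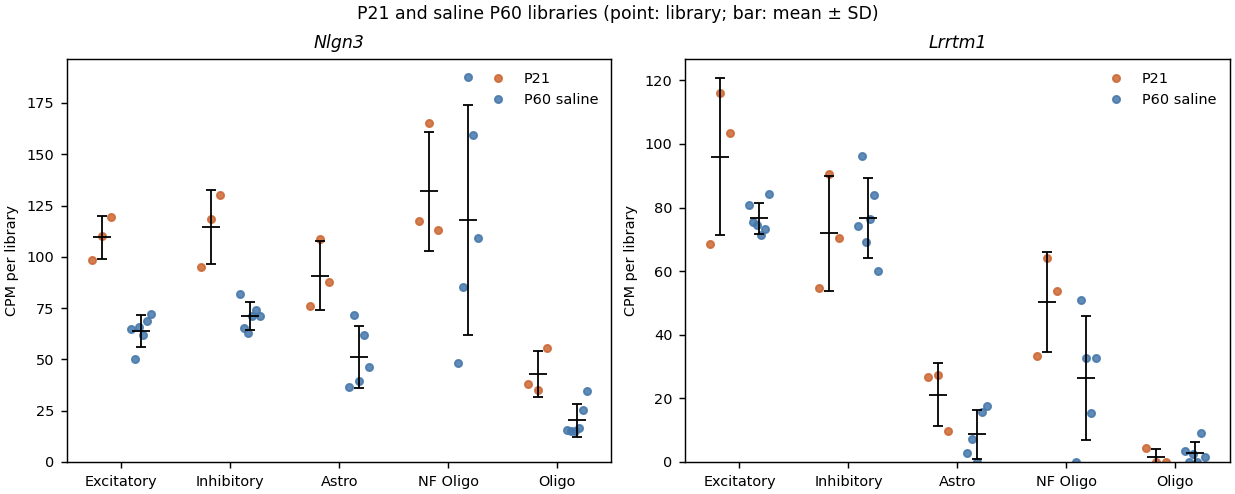
CPM of Nlgn3 and Lrrtm1 in P21 and saline P60 libraries for excitatory neurons, inhibitory neurons, astrocytes, newly formed oligodendrocytes and oligodendrocytes. Points are libraries and bars give the mean ± SD. All P21 points of Nlgn3 lie above all saline P60 points in both neuron classes, whereas those of Lrrtm1 overlap them. For excitatory neurons the share of all genes with the Nlgn3 pattern is in the text, and for inhibitory neurons it is not given.

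In excitatory neurons Nlgn3 was 98.6, 110 and 119 CPM in the P21 libraries. It was 50.1, 61.9, 65.0, 65.7, 68.7 and 72.4 CPM in the saline P60 libraries, so the groups did not overlap. The log2 fold change was -0.73 ± 0.096 (SE, edgeR adjusted p = 0.000127). Among the 13105 genes tested in excitatory neurons, 18.1% were called and 10.1% were called lower at P60, against 1 of the 9 genes here. The median log2 fold change of the 9 genes was -0.10, and that of all genes was -0.01. Lrrtm2 was also lower at P60 (log2 fold change -0.35, edgeR adjusted p = 0.0327), with P21 at 44.1 to 51.8 CPM and saline P60 at 26.4 to 42.9 CPM, but its change was under 1.5-fold. Every P21 library lay above every saline P60 library for 19.6% of the genes tested, Nlgn3 and Lrrtm2 among them.

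Lrrtm1 in excitatory neurons was 68.5, 116 and 103 CPM at P21 and 71.3 to 84.1 CPM at P60 (log2 fold change -0.28, edgeR adjusted p = 0.101). The first P21 library lay below all the saline P60 libraries and the others above all of them. Lrrtm4 (log2 fold change -0.24) and Lrrtm3 (0.16) did not pass either. For Nrxn2, Nrxn3, Nlgn1 and Nlgn2 the log2 fold changes lay between -0.10 and 0.12.

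In inhibitory neurons Nlgn3 was 94.9, 118 and 130 CPM at P21 and between 62.8 and 81.8 CPM in the saline P60 libraries, again without overlap. The share of all genes with that pattern in inhibitory neurons is not given. The log2 fold change was -0.70 ± 0.140 (SE, edgeR adjusted p = 0.00216). Of 8755 genes tested, 14.1% were called and 8.26% were called lower. Lrrtm3 had a log2 fold change of 0.46 (edgeR adjusted p = 0.0688), with 90.1 to 95.9 CPM at P21 and 68.8 to 193 CPM at P60. The age difference itself was compared between the classes with the library as a block. None of the 9 genes was called in that edgeR test (2 had an unadjusted p below 0.05), whereas 5.71% of 12144 genes were. For Nlgn3 the difference between the classes was 0.03 on the log2 scale (SE 0.127), and for Lrrtm1 it was 0.38 (edgeR adjusted p = 0.0784).

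The P21 libraries also differed from the saline P60 libraries in other measures. In excitatory neurons the summed level of 3 oligodendrocyte markers was 171 to 310 CPM at P21 and 45.7 to 124 CPM at P60. That of 2 pan-neuronal markers was 4821 to 5030 CPM at P21 and 5916 to 7139 CPM at P60. The 3 endothelial markers summed to 14.98 to 22.6 CPM at P21 and to 2.76 to 11.03 CPM at P60. Of the markers tested in excitatory neurons, 2 of 3 endothelial, 2 of 3 oligodendrocyte, 1 of 2 OPC and 1 of 1 striatal (Ppp1r1b) were called lower at P60, where 10.1% of genes were. Called lower were 0 of 3 astrocyte, 0 of 3 microglia, 0 of 3 excitatory, 0 of 2 inhibitory and 0 of 1 newly formed oligodendrocyte markers. The median share of mitochondrial UMIs over all cells of a library was 3.28% to 3.64% at P21 and 2.53% to 3.26% in the saline P60 libraries, so these did not overlap. In inhibitory neurons the endothelial sums overlapped, at 11.99 to 45.7 CPM at P21 and 0 to 116 CPM at P60. There 1 of 3 inhibitory neuron markers was called higher at P60 (median log2 fold change 0.50). Of 2 oligodendrocyte markers tested, 0 were called (median -0.93). The part of these measures in the Nlgn3 difference was not tested. The 2 OPC markers summed to at most 3.29 CPM in excitatory neurons at P21 and to at least 580 CPM in OPC at P60. Nlgn3 in P21 oligodendrocytes was 42.95 ± 11.2 CPM (SD, n = 3), below its level in P21 neurons, but in P21 newly formed oligodendrocytes it was 132 ± 28.9 CPM (SD, n = 3), or 135 ± 34.6 CPM (SD, n = 3) with matching cells. The newly formed oligodendrocyte markers Bmp4 and Enpp6 summed to 1.38 to 1.96 CPM in excitatory neurons at P21 and to 0.242 to 0.985 CPM at P60. In inhibitory neurons they summed to 2.17 to 6.49 CPM at P21 and to 0 to 14.9 CPM at P60. With only cells whose class and cluster matched, Nlgn3 had a log2 fold change of -0.74 in excitatory and -0.70 in inhibitory neurons. The call of Nlgn3 in both classes held by DESeq2 and without each single library in turn. The 3 P21 libraries came from 4 mice and may share mice, which leaving out 1 library does not address.

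Within the fine clusters the fall of Nlgn3 was widespread. Its log2 fold change was below 0 in 26 of 26 excitatory clusters, with a median of -0.69 and a range of -1.16 to -0.43. It was called in 16 of them, whereas 11.3% of the gene tests over these clusters gave a call. The clusters share the same 9 libraries and are not independent. The share of all genes below 0 in as many clusters is not given. Without any one library the number of clusters called was 11 to 16, and 12 by DESeq2. With matching cells it was 16, where 11.1% of the gene tests gave a call. The change was -0.93 in Exc_5, -0.88 in Exc_4 and -0.74 in Exc_25 (edgeR adjusted p = 0.000765). Of the 3 inhibitory clusters with enough cells, none gave a call for any of the 9 genes, and 1.63% of all gene tests did.

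**Figure D4:**
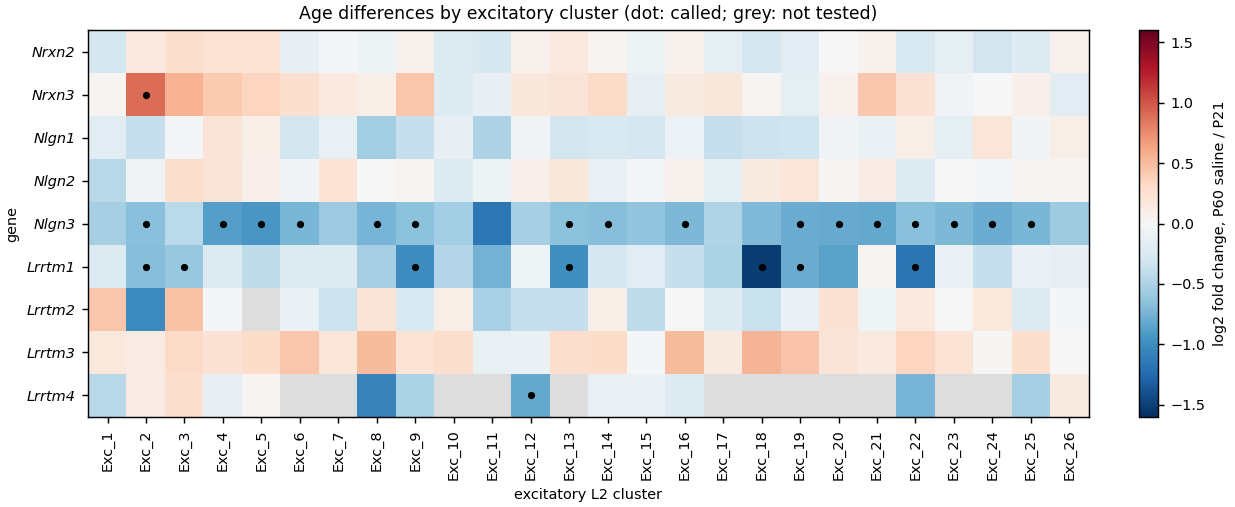
Heat map of the log2 fold change from P21 to saline P60 for the 9 genes (vertical axis) in the 26 excitatory clusters (horizontal axis). Blue is lower and red higher at P60, a dot marks a called change and grey was not tested. Nlgn3 is blue in all 26 clusters with 16 dots, and the single dot on red is Nrxn3 in Exc_2. Over these clusters 11.3% of all gene tests gave a call.

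Lrrtm1 fell in 7 excitatory clusters (Exc_2, Exc_3, Exc_9, Exc_13, Exc_18, Exc_19 and Exc_22) and its log2 fold change was below 0 in 25 of 26. Over these clusters 11.3% of all gene tests gave a call. The share of all genes below 0 in as many clusters is not given. The largest changes were -1.52 in Exc_18 and -1.17 in Exc_22 (edgeR adjusted p = 0.00207). In Exc_22 the mean was 58.5 ± 15.4 CPM (SD, n = 3) at P21 and 26.3 ± 12.5 CPM (SD, n = 9) over all P60 libraries. The number of clusters with a call depended on single libraries: it was 2 without the second P21 library, 3 without the third, 3 without the first saline 15 d library and 10 without the first P21 library. By DESeq2 it was 5, and with matching cells 6, since Exc_19 was lost. Lrrtm4 fell in Exc_12 (-0.82, edgeR adjusted p = 0.0150), a call that was lost by DESeq2 and without the second or the third P21 library. With matching cells Lrrtm4 was called there and in Exc_22.

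Nrxn3 rose in Exc_2 by the call used here, the 1 call for it among the 26 clusters, where 11.3% of all gene tests gave a call. Whether its change differed between clusters was not tested. Its log2 fold change was above 0 in 19 of the 26. In Exc_2 it averaged 246 ± 23.4 CPM (SD, n = 3) at P21 and 437 ± 71.3 CPM (SD, n = 12) over all P60 libraries, which ranged from 337 to 536 CPM. The log2 fold change against saline P60 was 0.89 ± 0.145 (SE, edgeR adjusted p = 5.77e-05), and the call was made by DESeq2 and without any single library. With matching cells Nrxn3 in Exc_2 averaged 241 ± 18.5 CPM (SD, n = 3) at P21 and the log2 fold change was 0.93 (edgeR adjusted p = 3.21e-05). Exc_2 was thus the excitatory cluster with the highest Nrxn3 at P60 but not at P21, when Exc_18 averaged 335 CPM. Lrrtm3 had a log2 fold change above 0 in 22 of 26 clusters, none of them called, and Nlgn1 below 0 in 21, none called. For Nrxn3, Lrrtm3 and Nlgn1 the share of all genes with as many changes of one sign is not given.

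In glia the comparison of ages rested on fewer cells and on the assignment of P21 cells. Nlgn3 fell in oligodendrocytes from 42.95 ± 11.2 CPM (SD, n = 3) to 20.4 ± 8.02 CPM (SD, n = 6), with a log2 fold change of -0.98 (edgeR adjusted p = 0.0271) where 16.7% of genes were called. With matching cells only, the log2 fold change was -0.85 (edgeR adjusted p = 0.0477). In the same class Enpp6 (log2 fold change -0.90) and Mbp (-0.79) were called lower and Aspa (0.74) higher at P60, and the part of this in the Nlgn3 difference was not tested. DESeq2 gave an adjusted p of 0.0723, and the call was lost without the third P21 library, the first saline maintenance library or the first saline 48 h library. In astrocytes Nlgn3 was 90.8 ± 16.7 CPM (SD, n = 3) at P21 and 51.1 ± 15.0 CPM (SD, n = 5) at P60 without overlap, and did not pass (log2 fold change -0.70, edgeR adjusted p = 0.114), where 7.58% of genes were called and 4.05% were called lower. The share of all genes without overlap in astrocytes is not given. With the 306 of 405 P21 astrocytes whose class and cluster matched, Nlgn3 was 60.1 ± 1.69 CPM (SD, n = 3) at P21, inside the range of 24.99 to 82.3 CPM over all P60 libraries (log2 fold change against saline P60 -0.32, edgeR adjusted p = 0.713), where 0.935% of genes were called. In endothelial cells no member was called (Nlgn3 log2 fold change -1.37, edgeR adjusted p = 0.179), where 6.36% of genes were called higher and 6.94% lower. With matching cells the endothelial change of Nlgn3 was -0.15 (edgeR adjusted p = 0.928), where 12.4% of genes were called.

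The P21 OPC class held 51 cells, of which 22 were also in the OPC cluster, and 29 were in excitatory clusters. Its pan-neuronal markers summed to 3501 and 3601 CPM in 2 libraries, against 181 to 2110 CPM in OPC of the saline P60 libraries, and its OPC markers to 110 and 338 CPM, against 725 to 1551 CPM. Their part in the differences was not tested. With those cells Nrxn2 (log2 fold change 0.82, edgeR adjusted p = 0.0445) and Lrrtm3 (0.87, edgeR adjusted p = 0.0444) were called higher at P60, where 20.5% of genes were called. With matching cells 1 P21 library of 14 cells remained, which the test takes to vary like the P60 libraries. No member was called by edgeR then and none had an unadjusted p below 0.05, where 0.0379% of 5283 genes were called, and the log2 fold change was -0.20 for Nrxn2 (edgeR adjusted p = 0.882) and 0.25 for Lrrtm3 (edgeR adjusted p = 0.895). In that P21 library Nrxn2 was 611 CPM, Nlgn3 171 CPM and Lrrtm3 269 CPM, against ranges with matching cells of 393 to 632, 194 to 300 and 217 to 384 CPM over the P60 libraries. In microglia Nlgn3, Nlgn2 and Nrxn2 were called lower at P60, where 42.4% of genes were called. Oligodendrocyte markers summed to 2693 to 5750 CPM in that class at P21 and to 39.0 to 291 CPM at P60, and microglia markers to 2309 to 6802 CPM and to 13271 to 20277 CPM. Of 329 P21 cells of the class 182 were in the microglia cluster, and with these alone Nrxn2 had an edgeR adjusted p of 0.603 and the others were too low to test.

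Cocaine was compared with saline within each period to learn whether drug taking and withdrawal change these genes. None of the 9 genes was called in any of the 8 classes at any period by edgeR or DESeq2. With 2 libraries per group a change can be missed. In simulated counts for maintenance, 2-fold changes were called for 75.9% of changed genes in excitatory and 12.3% in inhibitory neurons. Of 162 tests of a gene in a class and period, 9 had an unadjusted p below 0.05 by edgeR and 1 by DESeq2. In excitatory neurons 0.714% of 13173 genes were called at 15 d and none at the other periods, and in inhibitory neurons 0.779% of 8604 genes at 15 d and none at the others. In astrocytes 0.0135% of genes were called at 15 d, all lower, and in endothelial cells 0.0199% at 48 h and 0.139% at 15 d, all higher.

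**Figure D5:**
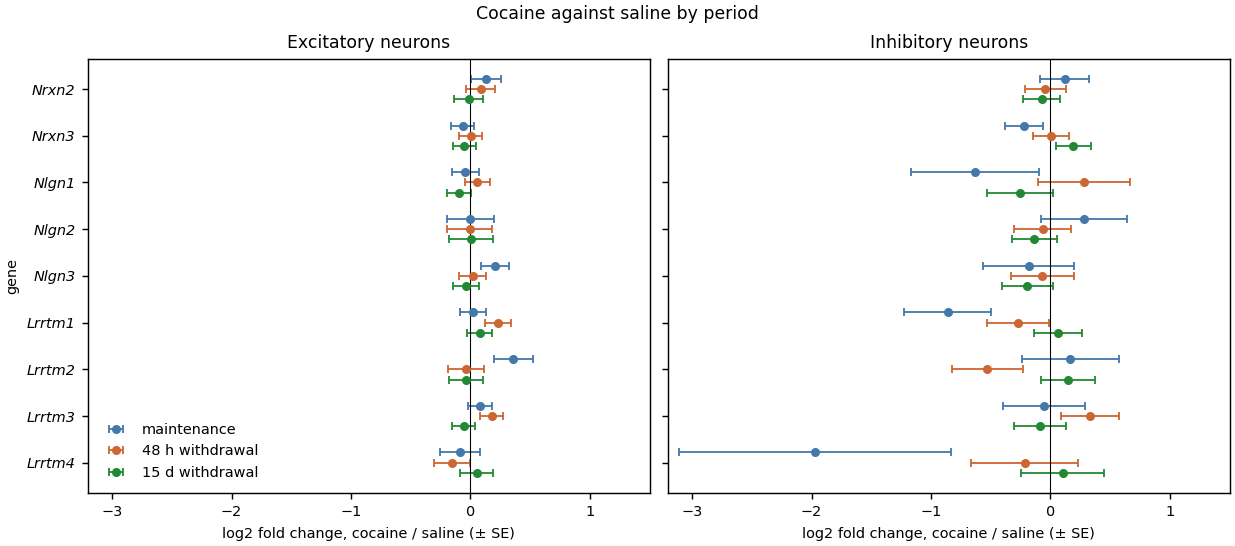
Log2 fold change of cocaine against saline (horizontal axis, ± SE) for the 9 genes in excitatory and inhibitory neurons, with one colour per period. None of these differences was called, and the error bars are wider in inhibitory neurons, above all at maintenance.

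Nlgn3, the gene that fell with age, was 71.7 and 61.8 CPM with cocaine and 65.0 and 50.1 CPM with saline in excitatory neurons at maintenance. At 48 h it was 66.4 and 64.5 CPM with cocaine and 65.7 and 61.9 CPM with saline. At 15 d it was 69.3 and 63.8 CPM with cocaine and 68.7 and 72.4 CPM with saline. The log2 differences were 0.21 ± 0.119, 0.02 ± 0.114 and -0.04 ± 0.109 (SE). The lowest unadjusted p-values in neurons belonged to Lrrtm1 in inhibitory neurons at maintenance (log2 difference -0.86 ± 0.363, edgeR adjusted p = 1), to Lrrtm2 in excitatory neurons at maintenance (0.36 ± 0.164, edgeR adjusted p = 0.741) and to Lrrtm1 in excitatory neurons at 48 h (0.23 ± 0.107, edgeR adjusted p = 0.982).

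For Lrrtm2 in excitatory neurons at maintenance the cocaine libraries had 36.4 and 44.9 CPM and the saline libraries 37.4 and 26.4 CPM, so the groups overlapped. For Lrrtm1 in inhibitory neurons at maintenance they were 53.7 and 44.8 CPM with cocaine and 74.3 and 96.3 CPM with saline, from libraries with few inhibitory neurons. In OPC, where most of the genes were highest, Lrrtm4 at maintenance was 37.2 and 50.8 CPM with cocaine and 119 CPM in the one saline library with enough OPC, which the test takes to vary like the others (log2 difference -1.35, edgeR adjusted p = 1), and Lrrtm2 at 48 h had a log2 difference of 0.90 (edgeR adjusted p = 0.999). In the neuron classes the difference between cocaine and saline did not pass as different between periods for any of the 9 genes in edgeR or DESeq2 (1 and 0 of 54 tests with an unadjusted p below 0.05). Over all 8 classes edgeR called none of 162 such tests, and 4 had an unadjusted p below 0.05.

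In the excitatory clusters no gene of the 9 was called at any period, with 15, 19 and 26 clusters tested at maintenance, 48 h and 15 d. Of 131, 164 and 222 gene tests, 14, 10 and 2 had an unadjusted p below 0.05 by edgeR and 7, 4 and 0 by DESeq2. Calls over all genes were 0.00647%, 0.00509% and 1.24% of the tests.

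The same tests were read for other genes of the pathway. The lists of ligands, adhesion pairs and scaffolds were chosen with earlier results of these data known. Their counts of calls and medians are therefore descriptions. Of 11 further neurexin ligands in the files, 10 were tested in excitatory neurons. From P21 to P60, 5 fell and 1 rose, and the median log2 fold change was -0.64 where that of all genes was -0.01 and 18.1% of all genes were called (10.1% lower and 8.02% higher). Nxph4 (-3.98), Nxph3 (-1.29) and Nxph2 (-1.23), which encode secreted neurexophilins, fell, and so did the cerebellin gene Cbln2 (-0.89) and Igsf21 (-0.95), the last pair named after their values were seen. C1ql3, which encodes a secreted C1q-like protein, rose (1.38, edgeR adjusted p = 0.0157). In inhibitory neurons 7 ligands were tested, and Cbln4 fell (-1.86) and no other passed, where 14.1% of genes were called and 8.26% were called lower.

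Of 23 genes of other adhesion pairs, 22 were tested in excitatory neurons, and 1 fell, where 10.1% of genes were called lower: Cadm1, a SynCAM gene (-1.08). Of 21 tested in inhibitory neurons 5 fell, where 8.26% of genes were called lower, among them the latrophilin gene Lphn2 (-1.38), Cadm1 (-1.21), Cadm2 (-0.89) and the receptor phosphatase gene Ptprf (-0.77). The fifth was Lphn3 (-0.67), named after its value was seen. Of 15 intracellular scaffolds and regulators tested in excitatory neurons 2 rose and 2 fell, where 8.02% of genes were called higher and 10.1% lower. Khdrbs2 (0.89), which encodes an RNA-binding protein that regulates neurexin splicing, and Apba1 (0.70), which encodes the neurexin scaffold Mint1, rose. Mdga1 (-1.77), which encodes a protein that binds neuroligins in the same membrane, and the protease gene Adam10 (-0.74) fell. In inhibitory neurons Apba1 (1.46) and the PSD-93 gene Dlg2 (0.75) rose and Lin7b (-0.68) fell among 13 tested, where 14.1% of genes were called. None of these further genes was called between cocaine and saline in a neuron class.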

How the data were processed

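Single-cell libraries were made by the authors with a droplet UMI method and aligned to mm9, and the submitters' notes name Seurat 2.1.0. The authors deposited raw UMI counts per gene and cell, and a cell table with class, cluster, treatment and period, with deposited counts of genes and UMIs per cell and the deposited fraction of mitochondrial UMIs. P21 cells were assigned to clusters by the authors through alignment to the P60 cells. Doublets had been removed by the authors.

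UMIs of retained cells were summed per library and class, and per library and cluster, where a library held at least 10 cells. Genes of the mitochondrial genome (13) and of ribosomal proteins (142) were removed, which left 25990 genes. Sums were tested with the quasi-likelihood test of edgeR 4.0.16 (TMM, filterByExpr, robust) in R 4.3.3, with Benjamini-Hochberg adjustment over all genes tested, and calls needed an adjusted p below 0.05 and a change over 1.5-fold. Cocaine was tested with 1 mean per group over the 12 P60 libraries. Alternatives were DESeq2 1.42.0, its size factors, no filter, 30 cells at least, no fold cutoff, mitochondrial and ribosomal genes kept, P21 libraries 2 and 3 summed, matching cells only, and each library left out. Where 1 library of an arm was left, it was taken to vary like the others. Levels and figures used Python 3.11.15. In simulated counts with known age changes of 1.5-fold, 47.7% of the changed genes tested were called in excitatory neurons, 15.2% in inhibitory neurons and 0% in OPC. At 2-fold these were 96.4%, 82.4% and 9.52%. For cocaine at maintenance they were 22.7% and 0% at 1.5-fold in excitatory and inhibitory neurons, and 75.9% and 12.3% at 2-fold. A gene that was not called may therefore have changed.

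The 9 genes and the lists of further genes were chosen with earlier results of these data known. The 9 genes are all named, listed genes were named where called (at most 4 by size), and the 3 genes most like each of the 9 over neuronal clusters were named. Replicates are libraries of pooled mice. For P21 the labels do not say which mice went into which library, so p-values there may partly measure technical spread.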

Additional observations from a re-analysis of the deposited data

Results flagged for a closer look

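Of 27 groups of saline P60 values examined in excitatory neurons, inhibitory neurons and OPC, 2 had a library far from the others, and chance gives about 1 in 20. Nrxn2 in OPC was 393 CPM in the first saline 15 d library, the lowest of 5, with the nearest at 511 CPM. The other 15 d libraries, with cocaine or saline, also lay below all OPC libraries of the other periods, at 421 to 511 CPM against 513 to 632 CPM. Lrrtm4 in OPC was 119 CPM in the first saline maintenance library, the highest of 5, with the nearest at 59.7 CPM.

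The difference between P21 and saline P60 was not the same in OPC and in excitatory neurons for 3 of the 9 genes in a test of the difference itself (edgeR, library as a block), where 9.88% of 12646 genes were called. The change in OPC minus that in excitatory neurons was 1.03 on the log2 scale for Nrxn2 (edgeR adjusted p = 0.00193), -1.14 for Nrxn3 (edgeR adjusted p = 0.00205) and 1.40 for Nlgn3 (edgeR adjusted p = 0.000549). The P21 OPC sums hold 29 cells of excitatory clusters among 51, and in those sums Nrxn3 was 290 and 293 CPM, against 210 to 222 CPM in P21 excitatory neurons. With matching cells only, 1 P21 library of OPC remained, which the test takes to vary like the others, and none of the 3 genes was called, where 0.12% of 13318 genes were (Nrxn2 0.35, Nrxn3 -0.05 and Nlgn3 1.41, with edgeR adjusted p-values of 0.930, 1 and 0.662). Of the 9 genes, Nlgn3 alone then had an unadjusted p below 0.05.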

How the results depend on the processing

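With matching cells only, which leaves OPC with 1 P21 library, the change of Nrxn2 in OPC turned from 0.82 to -0.20 and was not called. No other called value changed direction under an alternative. Over the 8 classes, the age comparison gave 8 calls among the 9 genes: 5 by DESeq2, 13 with no filter on low counts, 3 with matching cells only (chosen after seeing the data), and 3 to 15 when 1 library was left out, with 3 without the second P21 library, 4 without the first or the third P21 library or the first saline maintenance library and 15 without the first saline 15 d library. The calls of Nrxn2 and Lrrtm3 in OPC were lost by DESeq2, and the cause was not tested. With no fold cutoff excitatory neurons had 2 calls, since Lrrtm2 was added. Over the clusters 25 calls became 18 by DESeq2, were again 25 with matching cells, and became 17 to 31 when 1 library was left out. The difference in age effect between OPC and excitatory neurons gave 3 calls under each scaling and filter tried, 0 with matching cells and 1 to 4 when 1 library was left out. It gave 1 call (Nrxn2) without the first P21 library, and Nrxn2 was lost without the second. Without either, 1 P21 library of OPC is left and is taken to vary like the others. The cocaine comparisons gave 0 calls under all alternatives. Single-gene values kept their side of the threshold in 743 cases, lost it in 43 and gained it in 13, and 5 levels moved by over 1 SD when mitochondrial and ribosomal genes were kept in the total. No paired analysis was possible because the labels give no numbers that pair P60 libraries across groups. With 19 to 48 inhibitory neurons in a maintenance library, low levels there rest on few UMIs.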
